A study of Arabidopsis thaliana with 11 samples.

Results

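SPATULA (SPT, AT4G36930), ALCATRAZ (ALC, AT5G67110) and CESTA (CES, AT1G25330), which is also called HAF, are 3 genes of the basic helix-loop-helix (bHLH) family of transcription factors with known roles in the gynoecium, the female organ of the flower. They were chosen by locus. Each was measured by 1 probe set, so the account rests on 3 of the 22746 probe sets of an Arabidopsis thaliana ATH1 array once control probe sets had been set aside. The reference gene table lists 1 transcript for SPT, 1 for CES and 3 for ALC, so the signal of ALC does not tell its transcripts apart.

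The study measured total RNA of stigma (n = 3), ovary (n = 4) and whole seedling (n = 4), on 11 one-colour arrays. All 3 groups were of the accession Landsberg erecta, so stigma, ovary and seedling alike carried the erecta mutation, and no wild-type ERECTA plants were compared. For stigma and ovary, buds were emasculated at stage 8, their pistils were taken after 1 day, and scissors parted the stigma from the ovary; a style is not named as a sample of its own, and the labels describe stigma arrays in the words used for ovary arrays, so titles gave the groups. Seedlings were harvested whole after 10 days on Murashige and Skoog medium, and the labels do not say whether the arrays of 1 tissue came from separate plants or cultures, so p-values measure only spread between these samples, in part perhaps technical.

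Proteins of the bHLH family bind DNA as pairs, with themselves or with another member, at short motifs of the E-box type. In the carpel, SPT is known for the growth of the style, stigma, septum and transmitting tract, the tissue through which pollen tubes grow to the ovules. ALC is the close relative of SPT and is known for the separation layer along which the ripe fruit opens, and CES acts with the related genes BEE1 and BEE3 in the transmitting tract and in the response to brassinosteroid hormones. SPT is also known outside the flower, where it restrains seed germination and the growth of leaves and cotyledons.

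By mean signal, CES and SPT had the same order across the tissues, stigma, then ovary, then seedling, though stigma and ovary arrays of SPT overlapped. ALC had another order, with ovary above stigma and stigma above seedling. CES was highest in stigma, 4.03 times its level in ovary, and was near the floor of the array in seedling. ALC was highest in ovary, and its mean in stigma was 0.430 of that in ovary. SPT was measured in all 3 tissues at levels within 2-fold of each other. Signals are linear intensities that the authors had scaled to a common mean per array, and levels are compared only within a probe set, because probe sets differ in how strongly they bind.

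**Figure D1:**
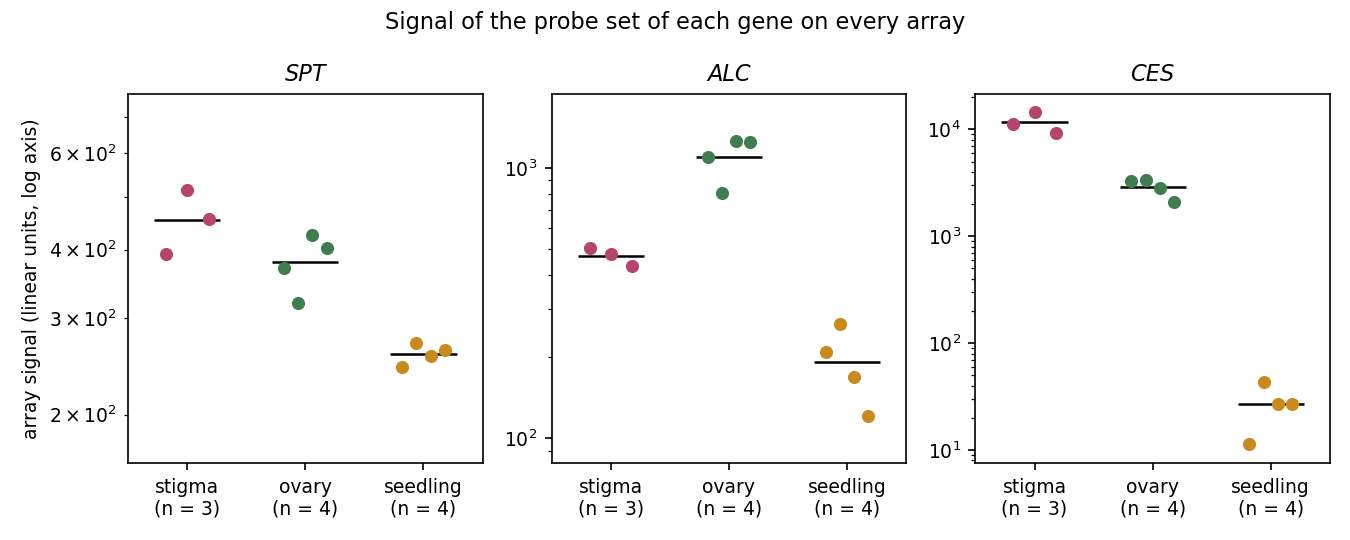
Array signal (linear units on a log axis, with a separate range for each gene) of SPT, ALC and CES on 3 stigma, 4 ovary and 4 seedling arrays; points are arrays in the order of their numbers and lines are means. Stigma lies highest for CES and ovary for ALC, and the stigma and ovary points of SPT overlap.

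For SPT, the stigma arrays read 393.0, 514.2 and 454.6. The ovary arrays read 371.0, 320.1, 425.6 and 402.8. The seedling arrays read 244.5, 270.4, 255.7 and 262.5. Stigma and ovary overlapped, since stigma 1 lay below ovary 3 and ovary 4, whereas every array of either pistil part lay above every seedling array. The means were 454 ± 60.6 in stigma (SD, n = 3), 379.9 ± 45.7 in ovary and 258 ± 10.97 in seedling (n = 4 each). The lowest stigma array was 1.45 times the highest seedling array, and the lowest ovary array was 1.18 times it.

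For ALC, the stigma arrays read 506.5, 479.9 and 433.1. The ovary arrays read 1096.4, 804.2, 1255.9 and 1242.4. The seedling arrays read 208.1, 265.3, 167.9 and 121.3. No 2 tissues overlapped for this gene: ovary was above stigma, and stigma above seedling. The means were 473 ± 37.2 in stigma, 1099.7 ± 209.8 in ovary and 191 ± 61.1 in seedling. Ovary 2, the lowest of its group, was still 1.59 times the highest stigma array and 3.03 times the highest seedling array, and the lowest stigma array was 1.63 times the highest seedling array.

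For CES, the stigma arrays read 11332.7, 14446.8 and 9203.8. The ovary arrays read 3313.7, 3370.1, 2802.6 and 2096.5. The seedling arrays read 11.3, 43.6, 26.9 and 27.1. The tissues were again separate, with stigma highest and seedling lowest. The means were 11661 ± 2637 in stigma, 2896 ± 591 in ovary and 27.2 ± 13.2 in seedling. The lowest stigma array was 2.73 times the highest ovary array, and the lowest ovary array was 48.1 times the highest seedling array. On all 4 seedling arrays CES was below 144.2, which is the 40th percentile over the whole table, and on seedling 1 it was below the 10th percentile, 17.2.

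Relative spread differed between genes and tissues. SPT had a coefficient of variation of 13.4% on stigma arrays, 12.0% on ovary arrays and 4.25% on seedling arrays. For ALC it came to 7.85% on stigma, 19.1% on ovary and 32.1% on seedling arrays, and that of CES was 22.6%, 20.4% and 48.5% in the same order. The dimmest group of ALC and of CES was thus the one with the largest relative spread, while for SPT the dimmest group had the smallest.

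Differences between tissues were fitted in limma on log2(signal + 17.2) over all 15524 probe sets that passed a filter on dim values, with p-values adjusted over all of them by Benjamini-Hochberg. A gene was called where its adjusted p was under 0.05 and its difference at least 2-fold, and a fold on this scale understates the change of dim transcripts. All 3 genes passed the filter. RNA came from whole tissue pieces, so fewer cells of a type and less RNA per cell cannot be told apart.

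**Figure D2:**
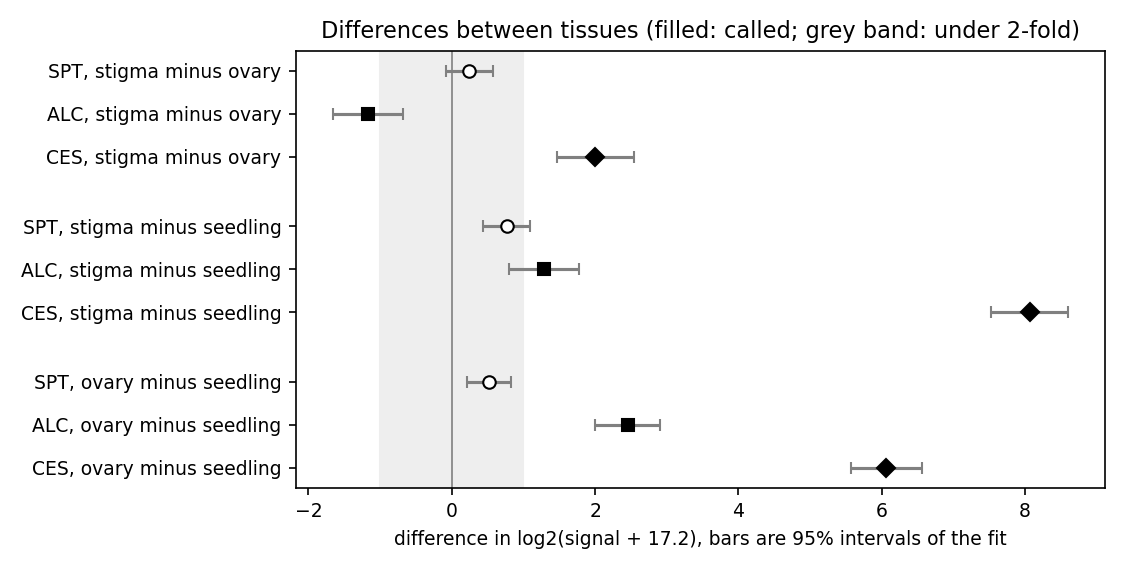
Difference in log2(signal + 17.2) between tissues for SPT, ALC and CES, with 95% intervals of the limma fit over 11 arrays; filled symbols were called, and the grey band marks differences under 2-fold. ALC lies below 0 and CES above it for stigma minus ovary, and no difference of SPT leaves the grey band, though 1 of its intervals does.

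Between stigma and ovary, 1 of the 3 genes was called higher and 1 lower, where 6.27% of all tested probe sets were called higher and 9.51% lower. CES was higher in stigma by 2.003 (log2 difference, SE 0.25, limma adjusted p = 4.5e-05, 95% interval 1.47 to 2.54), and 289 of the 15524 tested probe sets, CES included, differed by at least as much in that direction. ALC was lower in stigma, with a difference of −1.17 (SE 0.23, limma adjusted p = 0.00143, 95% interval −1.66 to −0.68). For SPT the difference was 0.25 (SE 0.15, limma adjusted p = 0.231) and a 95% interval from −0.08 to 0.57. The groups did not overlap for 2 of the 3 genes, against 45.2% of all tested probe sets.

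Between stigma and seedling, 2 of the 3 genes were called higher, against 11% of all tested probe sets. CES differed by 8.06 (SE 0.25, limma adjusted p = 5.35e-11). ALC was higher in stigma by 1.28 (SE 0.23, limma adjusted p = 0.000399). SPT differed by 0.77 (SE 0.15, limma adjusted p = 0.000894), which is under 2-fold and was not called. None of the 3 genes had overlapping groups in this comparison, as was so for 51.4% of all tested probe sets.

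Between ovary and seedling, the same 2 of 3 genes were called higher, against 11.1% of all tested probe sets. CES differed by 6.06 (SE 0.23, limma adjusted p = 3.79e-10). ALC was higher in ovary by 2.45 (SE 0.21, limma adjusted p = 7.72e-07). SPT differed by 0.52 (SE 0.14, limma adjusted p = 0.00708), again under 2-fold. No groups overlapped, against 47.6% of all tested probe sets without overlap. The seedling differences of both comparisons share the same 4 seedling arrays.

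The size of the seedling differences of CES depends on the constant added before the log. With 144.2 added they were 6.09 for stigma and 4.13 for ovary, and with 1 added they were 8.81 and 6.80. On the linear scale the mean of CES in stigma was 428 times, and its mean in ovary 106 times, its mean in seedling, and both ratios rest on a seedling signal that lies near the floor. ALC in stigma was more marginal. With 144.2 added it was lower in stigma than in ovary by a difference of −0.9955, just under 2-fold, and higher in stigma than in seedling by 0.90, so neither was called. Counted over all tested probe sets, the order of CES (stigma called over ovary and ovary over seedling) was shared by 184 (1.19%), that of ALC (ovary over stigma and stigma over seedling) by 101 (0.651%), and 9707 (62.5%) had, like SPT, no call at all.

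Whether the genes differed from each other in how they changed was tested within arrays, as the difference in log2(signal + 17.2) between 2 of the genes on the same array, whose own size has no meaning because probe sets differ in brightness. These 9 tests were exact two-sided permutation tests over arrays, adjusted together, and the smallest p they can give is 0.0286. ALC minus SPT was 0.06 ± 0.25 on stigma arrays (SD, n = 3) and 1.48 ± 0.13 on ovary arrays (n = 4) and so differed by −1.42 (exact permutation p = 0.0286, adjusted p = 0.0321). Between stigma and seedling, where ALC minus SPT was −0.45 ± 0.43, the difference was 0.52 and the groups overlapped (exact permutation p = 0.2, adjusted p = 0.2). Between ovary and seedling it was 1.93 (exact permutation p = 0.0286, adjusted p = 0.0321). The close relatives SPT and ALC thus differed in the contrasts that involve the ovary, and the third contrast did not pass.

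For CES minus SPT the means were 4.62 ± 0.28 in stigma, 2.86 ± 0.44 in ovary and −2.68 ± 0.39 in seedling. The differences were 1.76 for stigma minus ovary, 7.30 for stigma minus seedling and 5.54 for ovary minus seedling. For CES minus ALC they were 4.55 ± 0.27 on stigma, 1.38 ± 0.56 on ovary and −2.23 ± 0.56 on seedling arrays, and the differences were 3.17, 6.78 and 3.61 in the same order of contrasts. All 6 had separate groups, with an exact permutation p of 0.0286 and an adjusted p of 0.0321. With any 1 ovary array left out, the contrasts with ovary had an adjusted p of at least 0.0514 in the exact permutation test. The smaller groups and the joint adjustment limit how low that p can go, so it does not measure how firm the differences are. ALC minus SPT was larger on every ovary array than on any stigma array, and CES minus ALC was smaller.

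**Figure D3:**
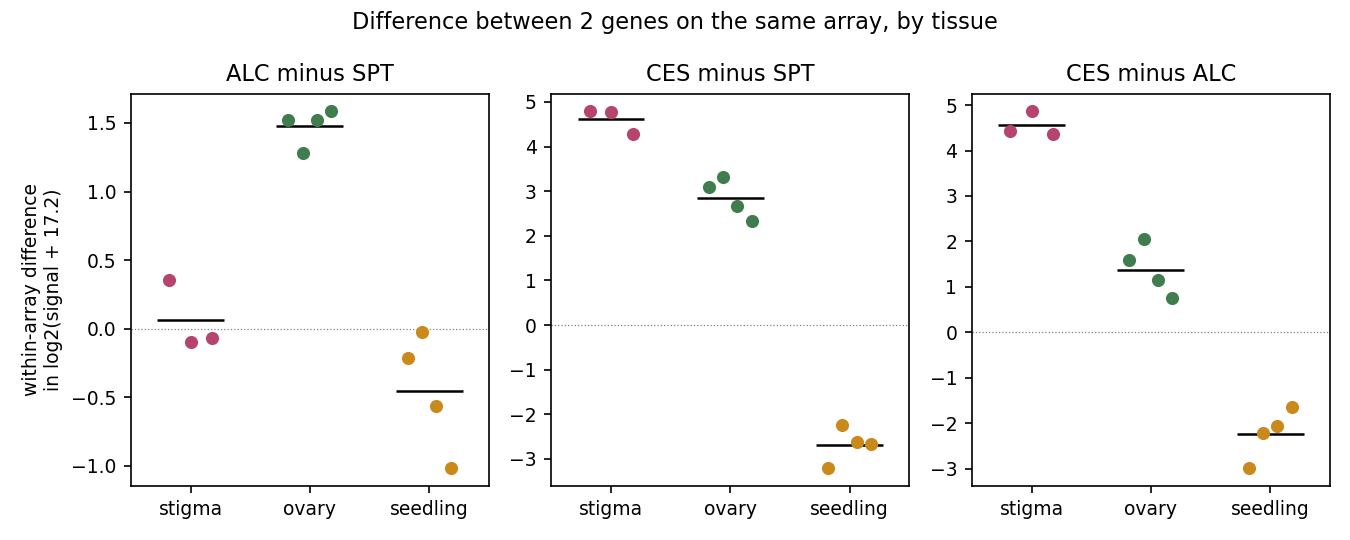
Difference in log2(signal + 17.2) between 2 genes on the same array, for 3 stigma, 4 ovary and 4 seedling arrays; points are arrays and lines are means. The ovary points of ALC minus SPT lie above those of both other tissues, and stigma and seedling overlap in that panel only.

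The arrays had been scanned in 4 periods on chips of 3 lots. Stigma 1, ovary 1 and ovary 2 shared scan period A and chip lot 1, and stigma 2, stigma 3, ovary 3 and ovary 4 shared period B and lot 2. Seedlings 1 and 2 were scanned apart from the rest on chips of lots 1 and 2, and seedlings 3 and 4 in a further period on lot 3. Within period A the stigma minus ovary difference was 0.18 for SPT, −0.87 for ALC and 1.76 for CES. Within period B it was 0.22, −1.42 and 2.24 in the same order. Directions were thus shared by both periods, and ALC within period A, where 1 stigma array met 2 ovary arrays, was under 2-fold (limma adjusted p = 0.0339). With the period as a block the differences were 0.20, −1.20 and 2.05.

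No scan period held both seedling and pistil arrays, so the seedling differences are given within lots. Within lot 1 they were 0.65 for SPT, 1.22 for ALC and 8.64 for CES in stigma, and 0.47, 2.09 and 6.88 in ovary. Within lot 2 they were 0.80, 0.74 and 7.57 in stigma, and 0.58, 2.16 and 5.33 in ovary. ALC between stigma and seedling was under 2-fold within lot 2, and also with lot as a block, where the difference was 0.92. Each lot held 1 seedling array in the fits within lots. Those values are therefore sizes only, for SPT and CES as for ALC, and do not show that a difference holds within a lot. With the period as a random block, the stigma minus seedling differences were 0.74, 1.26 and 8.09, and those for ovary were 0.52, 2.45 and 6.06.

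**Figure D4:**
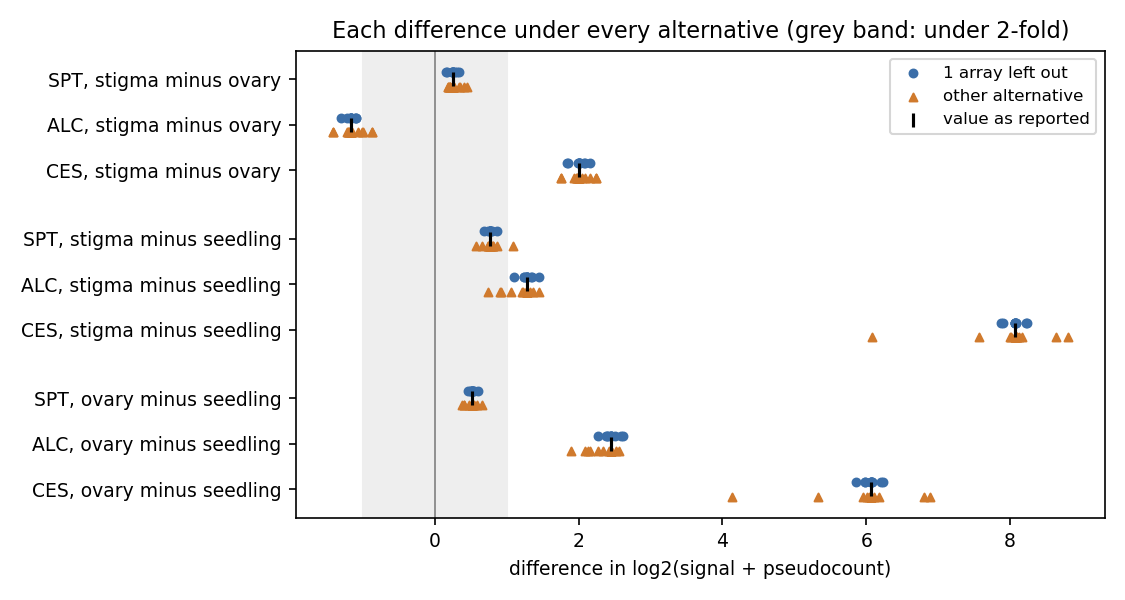
Difference in log2 signal between tissues for each gene under every alternative; circles leave out 1 array, triangles are other alternatives, black ticks the values as reported and the grey band differences under 2-fold. Triangles of ALC between stigma and ovary and between stigma and seedling reach the grey band, 1 triangle of SPT between stigma and seedling leaves it, and those of CES stay outside it.

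Arrays were also compared in RNA quality and in the markers of their tissue. The log2 ratio of the 3' over the 5' control probe set of GAPDH ran from 1.09 to 2.27 on stigma, 0.70 to 1.11 on ovary and 0.25 to 0.55 on seedling arrays, so it moved with the groups, highest in stigma 1. With this ratio as a covariate, the stigma minus ovary difference of CES was 1.97 and that of ALC −1.07 (limma adjusted p = 0.0251). SPT between stigma and seedling became 1.09 (SE 0.24, against 0.15 without the covariate, limma adjusted p = 0.00567) and so passed 2-fold. The ratio did not overlap between stigma and seedling arrays, so tissue and RNA quality cannot be told apart in that comparison. The mean rank correlation of an array with the others of its tissue was 0.962 to 0.971 for 10 arrays and 0.945 for seedling 4, which also had the lowest ALC signal. Without stigma 1, ovary 1 and seedling 4 together, the stigma minus ovary differences were 0.33 for SPT, −1.21 for ALC and 2.08 for CES. The seedling differences were then 0.87, 1.06 and 8.09 for stigma and 0.54, 2.27 and 6.004 for ovary, with no call gained or lost.

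The stigma marker SLR1, which is related to the S-locus glycoproteins of self-incompatible crucifers, read 12910.4 to 14658.7 in stigma and 1832.3, 316.4, 124.0 and 156.9 on ovary arrays 1 to 4. Those ovary signals were 13.5%, 2.34%, 0.916% and 1.16% of its stigma mean, whereas CES in the same ovary arrays stood at 28.4%, 28.9%, 24.0% and 17.98% of its own stigma mean. The lowest SLR1 signal was on ovary 3 and the lowest CES signal on ovary 4. The part of stigma RNA in the ovary signal of CES was not tested.

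The ovule gene INO, which directs growth of the outer integument, read 201.0, 247.4 and 136.9 in stigma against 515.9 to 605.1 in ovary. That was 34.7%, 42.8% and 23.7% of its ovary mean, and the seedling arrays, which hold no ovules, stood at 19.1% to 47.1% of it. ALC in the same stigma arrays stood at 46.1%, 43.6% and 39.4% of its own ovary mean. The part of ovary RNA in the stigma signal of ALC was not tested. Summed over the named markers of each list, the 2 of 3 stigma markers reached 12936 to 14660.5 in stigma, 149.7 to 1861 in ovary and 67.9 to 123 in seedling. SLR1 made up nearly all of the sums in stigma, since the other named stigma marker, STIG1 (AT4G26880), was too dim for a test, at 18.4 ± 14.4 in stigma, 27.95 ± 3.97 in ovary and 41.5 ± 15.9 in seedling. The 3 of 8 ovary and ovule markers reached 896 to 1167 in stigma, 2013 to 2267 in ovary and 523 to 853 in seedling. TSO1 made up most of these sums, at 821 in stigma, 1511 in ovary and 529 in seedling. SPL was too dim for a test and lowest in ovary, at 9.87, 7.7 and 13.6 in the same order. Of the 2 named embryo sac markers, AGL61 was not higher in ovary, at 235, 198 and 190. EC1.2, too dim for a test, was, at 57.0, 125 and 30.6. Of the 4 transmitting tract markers only CES itself has a named probe set, so that tissue has no marker here that is independent of CES. The 2 named tapetum and anther markers stayed under 144.2 on every array. The 6 of 7 pollen markers summed to 638 to 1021 in stigma, 575 to 755 in ovary and 613 to 1099.9 in seedling, and 2 of them passed 144.2 on at least 1 stigma array. Most of that sum was TUA1, while the pollen gene AT59 averaged 111 ± 24.7 in stigma, 36.5 ± 20.9 in ovary and 6.88 ± 1.78 in seedling. Its stigma and ovary arrays did not overlap, as was so for 45.2% of all tested probe sets. ANX2, at 84.7 ± 60.5, and ACT12, at 38.2 ± 29.3, also had their highest mean in stigma, but overlapped ovary. AT59, ANX2 and ACT12 were too dim for a test. TUA1, at 779 in seedling and 567 in stigma, and MGH3, at 23.0 and 16.1, had their highest mean in seedling. ANX1 averaged 6.77 in stigma, 4.95 in ovary and 4.4 in seedling. The part of pollen RNA in the results was not tested. The sums of 2 root and 5 leaf markers were highest in seedling, at 12458 to 16660 and 60741 to 69525.

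The genes around SPT, ALC and CES were followed through lists of partners, clades and hormone pathways. Without the 3 genes themselves, these lists held 126 genes, of which 16 had a named probe set and 15 were tested, so each list is covered only in part. Between stigma and ovary 6 of the 15 were called higher and 0 lower in limma, against 6.27% higher and 9.51% lower over all tested probe sets. A further 4 were lower and 1 higher at a limma adjusted p under 0.05, but under 2-fold. The median difference of the 15 was 0.43 against −0.07 over all tested probe sets. Against seedling, 6 were higher and 2 lower in stigma, where 11% and 15.1% of all tested probe sets were, with a median of 0.71 against 0.04. In ovary 2 were higher than in seedling and 0 lower, where 11.1% and 11.7% of all tested probe sets were, with a median of 0.01 against 0.12. Of those not called, 1 was lower and 2 higher in ovary at a limma adjusted p under 0.05, but under 2-fold.

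Among partners of SPT and carpel patterning genes, 3 of 18 were tested, namely SPT, ALC and SEU. SEU, which encodes a transcriptional co-regulator, had means of 734 ± 26.4 in stigma, 857 ± 43.6 in ovary and 752 ± 68.6 in seedling and was not called in any of the 3 comparisons. HEC1, HEC2, HEC3 and IND, which encode bHLH partners of SPT, have no named probe set here and were not analysed.

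Of the style and stigma regulators, 8 of 15 were tested. Between stigma and ovary 4 were called higher and 0 lower in limma, against 6.27% and 9.51% of all tested probe sets, and the median difference was 0.83. Of those not called, 1 was lower and 1 higher at a limma adjusted p under 0.05, but under 2-fold. YUC4, an enzyme of auxin synthesis, averaged 537 ± 198 on stigma arrays, against 83.6 ± 22.6 on ovary arrays, and differed by 2.41 on the log2 scale (SE 0.29). NGA3, one of the NGATHA regulators of style and stigma growth, averaged 228 ± 73.1 in stigma, against 41.0 ± 27.0 in ovary, and differed by 2.14 (SE 0.35). With 144.2 added that difference was 0.999 and was not called, nor was it within scan period A, at 1.12 (limma adjusted p = 0.0649). Its difference from seedling was 1.44 (SE 0.35), but 0.77 with 144.2 added and 0.83 within lot 1, both not called. NGA1 differed by 1.78 (SE 0.26) and was also higher in stigma than in seedling, by 2.16 (SE 0.26). SPT, which belongs to the same list, was among the 4 not called in this comparison. Against seedling 3 of the 8 were called higher in stigma, beside 11% of all tested probe sets, and 1, SHI, was called higher in ovary, by 1.17 (SE 0.21), beside 11.1%.

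Only SPT and ALC were tested of the 11 genes of the phytochrome-interacting clade, and only CES and SPT of the 10 transmitting tract genes, so neither list adds a gene. In the clade of the BEE and CIB genes, to which CES belongs, 2 of 15 were tested. The other was BPEp, known for limiting the growth of petal cells, with 175 ± 56.4 in stigma, 324 ± 62.1 in ovary and 7.88 ± 2.37 in seedling. Its order in the pistil was the reverse of that of CES, with a stigma minus ovary difference of −0.85 (SE 0.26) that was under 2-fold. It was called higher than seedling in both, by 2.90 in stigma and 3.75 in ovary, but all its seedling arrays lay under 17.2, and over the alternatives these values ran from 1.05 to 4.30 and from 1.61 to 5.21.

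Of the hormone genes, brassinosteroid synthesis and signalling had 1 tested gene of 26. This was the receptor kinase gene BRL1, which averaged 192 ± 15.5 in stigma, 77.1 ± 18.04 in ovary and 78.3 ± 9.20 in seedling, and was called higher in stigma than in ovary (1.17, SE 0.22) and than in seedling (1.13, SE 0.22). With 144.2 added before the log these fell under 2-fold, at 0.61 and 0.60, and within chip lot 1 neither was called (limma adjusted p = 0.0512 and 0.0832). Gibberellin synthesis and signalling had 4 tested genes of 29, with 0 called in limma between stigma and ovary. There 2 were lower in stigma at a limma adjusted p under 0.05, but under 2-fold. Against seedling 2 were called lower in stigma, where 15.1% of all tested probe sets were called lower. These were the gibberellin receptor genes GID1C, with a difference of −1.34 (SE 0.28), and GID1B, with −1.19 (SE 0.24). GID1C lost its call under 4 of 26 alternatives, which ran from −1.98 to −0.54, and GID1B under 2 of 26, from −1.48 to −0.59. With the RNA quality covariate both were among those lost (limma adjusted p = 0.358 for GID1C and 0.0534 for GID1B). Auxin and cytokinin genes tied to SPT or IND had 1 tested gene of 16, the kinase gene WAG2, which acts on auxin efflux carriers. WAG2 averaged 593 ± 44.5 in stigma, 62.5 ± 13.5 in ovary and 86.4 ± 23.1 in seedling, and was called higher in stigma than in ovary by 2.95 (SE 0.22) and than in seedling by 2.58 (SE 0.22). Among 13 fruit opening genes ALC alone was tested. The cell wall enzyme gene ADPG1 was too dim for a test, at 56.6 ± 9.95 in stigma, 41.3 ± 12.3 in ovary and 22.4 ± 8.58 in seedling.

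Other bHLH genes were set beside the 3. Excluding SPT, ALC and CES, 38 were listed, of which 19 had a named probe set and 16 were tested. Some of these were added after the names in the annotation had been seen. In stigma 1 of the 16 was called higher than ovary and 4 lower, beside 6.27% and 9.51% of all tested probe sets. Against seedling 3 were higher and 5 lower in stigma, beside 11% and 15.1% of all tested probe sets, and 3 were higher and 1 lower in ovary, beside 11.1% and 11.7%. UPB1, known from roots as a regulator of peroxidase genes, had the largest stigma minus ovary difference of the 16, with 2981 ± 589.7 in stigma, 250.1 ± 95.3 in ovary and 184 ± 98.8 in seedling and a difference of 3.54 (SE 0.37). The direction of ALC was met in AT1G22490, with 174 ± 55.5 in stigma, 439 ± 74.5 in ovary and 94.6 ± 89.8 in seedling, called lower in stigma than in ovary (−1.29, SE 0.46) and higher in ovary than in seedling (2.35, SE 0.43). The first of these calls (limma adjusted p = 0.0447) was lost under 18 of 29 alternatives, with an adjusted p of up to 0.167. The other 3 called lower in stigma than in ovary were SPCH (−1.86), MYC4 (−1.75) and MYC3 (−1.12), with limma adjusted p of 0.000189 to 0.00262. None of them was called between ovary and seedling. BPEp and LHW, called over seedling in both pistil parts, had the order of means of ALC but no call between stigma and ovary. SPCH, MYC4, MYC3 and LHW were not followed through the alternatives. The opposite of CES in seedling was NAI1, known for forming bodies of the endoplasmic reticulum, which averaged 20.8 ± 2.35 in stigma, 11.7 ± 8.92 in ovary and 436 ± 107 in seedling. bHLH104, a regulator of iron balance, was lower in stigma than in seedling by a difference of −1.05 (SE 0.20), which was under 2-fold in 6 of 27 alternatives, with chip lot as a block among them (−0.90). Of 3 reference genes tested, 2 were not called in any comparison, while the tubulin gene TUB6 was called higher in stigma than in ovary, by 1.08 (0.99 and not called with the RNA quality covariate), and than in seedling, by 1.35. It kept that direction with equal medians (1.24 and 1.39) and with quantile scaling (1.04 and 1.31).

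The genes whose profile over the 11 arrays was most like that of each of the 3 were found by the root-mean-square difference of log2(signal + 17.2), each centred on its own mean, among 8495 tested probe sets with 1 gene. The arrays share their tissues and their scaling, so these are descriptions. The median difference over all compared profiles was 0.491 from SPT, 1.09 from ALC and 3.4 from CES. A count within a fixed distance thus also reflects how flat a profile is. For SPT 613 lay within 0.25, and the nearest was AT5G12400 at 0.0964, followed by AT3G18430, AT4G38500, AT5G53150 and AT2G20390 at up to 0.119. ALC had 2 within 0.25, AT1G50110 at 0.173 and NRPB9A, a subunit gene of RNA polymerase II, at 0.236, and then AT1G62870, AT2G25270 and AT2G43530 at up to 0.283. CES had 0 within 0.25. Its nearest were the subtilase gene SBT4.13 at 0.447 and the carnitine transporter gene OCT1 at 0.478, followed by AT1G30795, AT3G26140 and AT1G44970 at up to 0.979. The Pearson correlations of these 5 with CES were 0.981 to 0.992. Those of the 5 nearest to SPT were 0.938 to 0.968, and of the 5 nearest to ALC 0.972 to 0.988. All were picked for nearness on the same arrays, so high correlations follow in part from the choice. They also do not show a like order of size within the pistil. AT1G30795 correlated with CES at 0.981, but its stigma minus ovary difference was 0.479 against 2.003 for CES.

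All 5 genes nearest to CES were lowest in seedling and had a smaller stigma minus ovary difference than CES, and their seedling means ran from 6.90 for OCT1 to 183 for AT1G44970. SBT4.13 averaged 14932 ± 1611 in stigma, 5729 ± 420.1 in ovary and 55.0 ± 9.92 in seedling, a stigma minus ovary difference of 1.38 against 2.003 for CES. OCT1 averaged 5938 ± 1601 in stigma, 2104 ± 254 in ovary and 6.90 ± 3.43 in seedling, with a difference of 1.46. AT1G50110, the nearest to ALC, averaged 466 ± 91.2 in stigma, 1237 ± 168 in ovary and 217 ± 91.5 in seedling. The nearest to SPT, AT5G12400, averaged 636 ± 101 in stigma, 566 ± 90.1 in ovary and 363 ± 37.6 in seedling. Like SPT and ALC, both of these were lowest in seedling. For all genes named here as nearest, a low seedling level follows in part from choosing them by nearness.

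**Figure D5:**
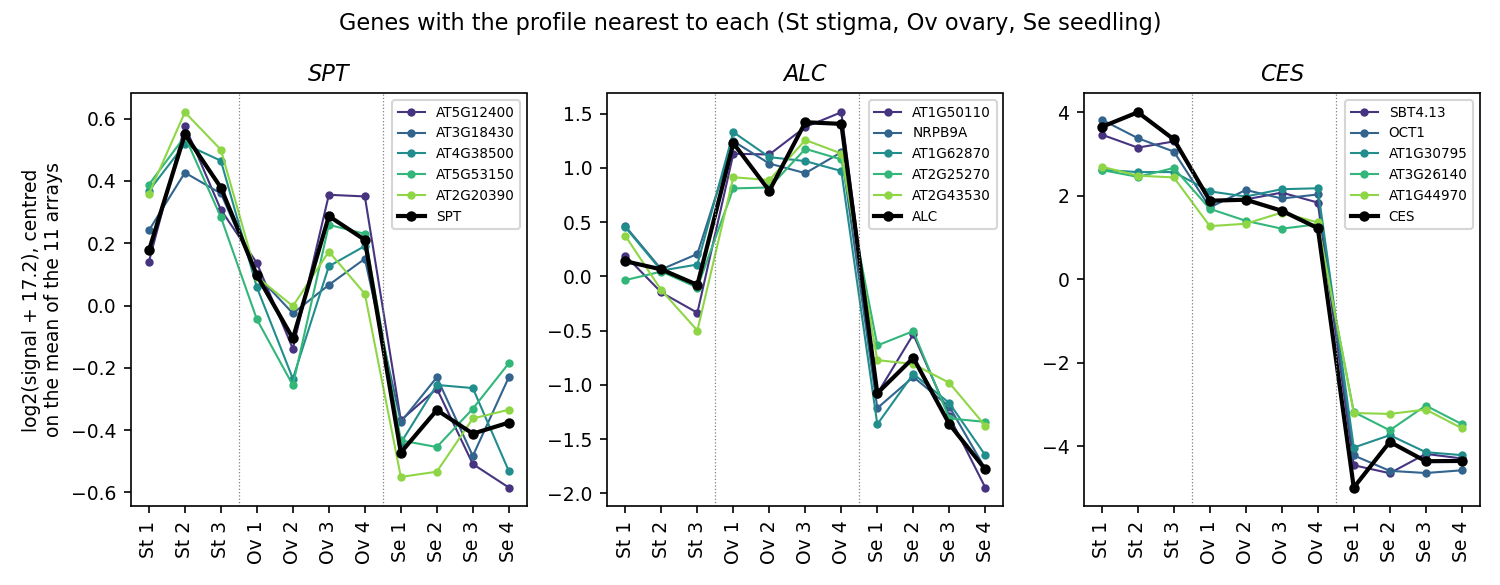
log2(signal + 17.2) on each of the 11 arrays (St stigma, Ov ovary, Se seedling), centred on the mean over arrays, for SPT, ALC and CES in black and the 5 genes nearest to each in colour; each panel has its own vertical range. The lines of SPT span about 1 unit and cross often, those of ALC peak in ovary, and those of CES lie more than 7 units apart between stigma and seedling for CES, SBT4.13 and OCT1.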

How the data were processed

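The deposited values are linear intensity signals, 1 per probe set on each of 11 arrays. Their mean, trimmed by 2% at each end, was 500.03 or 500.04 on every array, so the authors had scaled the arrays to a common mean; no source used here names the software. The deposited run information, a unit of another kind (other), gave only scan period and chip lot. Of 22810 probe sets, 64 controls were set aside. Tests took the 15524 probe sets above 144.2 (40th percentile) on 3 or more arrays; 7222 were dimmer. The log2 of signal plus 17.2 (10th percentile) was fitted with 1 mean per tissue over 11 arrays in limma 3.58.1 (R 4.3.3) (eBayes with a variance trend), with 8 residual degrees of freedom. The number of arrays limits the precision. The fit was tried on simulated data, and the permutation test only on small made-up examples.

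In the annotation supplied 13513 probe sets name 1 gene and 503 name several; 8730 were not listed in it, and 13436 matched the reference gene table (TAIR10.1). Named were up to 3 called members of each list, or the largest by value where none was called, and the 5 nearest profiles per gene. SEU, ADPG1, SHI, INO, SPCH, MYC4, MYC3 and LHW were named for their part in the lists after their values were seen. The genes, lists and tests were chosen with earlier results of these data known. Lists were SPT partners and carpel patterning, style and stigma regulators, transmitting tract, phytochrome-interacting clade, BEE and CIB clade, other and further bHLH genes, brassinosteroid, gibberellin, auxin and cytokinin, fruit opening and reference genes. Alternatives changed the pseudocount, filter, scaling, variance trend, blocks, RNA quality covariate and arrays left out.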

Additional observations from a re-analysis of the deposited data

Results flagged for a closer look

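In groups of 4 arrays, the highest or lowest array was marked where its gap to the next was above Dixon's 95% critical value. This held for 7 of 68 groups over 34 genes, where chance marks about 1 in 20, and for no group of SPT, ALC or CES. Of the signals above the rest, BRL1 read 92.0 in seedling 3, against 72.6 to 74.4 on the other seedling arrays. WAG2 read 120.6 in seedling 3, against 72.0 to 79.8. OCT1 read 12.0 in seedling 1, against 4.6 to 5.6, and NAI1 read 25.0 in ovary 4, against 5.8 to 8.5. SLR1 read 1832.3 in ovary 1, against 124.0 to 316.4 on the other ovary arrays. Of those below the rest, GID1C read 93.1 in ovary 3, against 135.3 to 141.7, and bHLH104 read 799.7 in seedling 2, against 995.6 to 1011.7.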

How the results depend on the processing

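SPT, ALC and CES kept the direction of all 9 differences under every alternative run. Leaving out 1 array at a time changed no call of these differences. Stigma minus ovary then ran from 0.16 to 0.34 for SPT, −1.31 to −1.10 for ALC and 1.84 to 2.16 for CES. With the pseudocount at the 40th percentile, ALC was under 2-fold between stigma and ovary (−0.9955) and between stigma and seedling (0.90). The difference between stigma and ovary was also under 2-fold within scan period A and within chip lot 1, which hold the same arrays (−0.87 in both). That between stigma and seedling was not called with lot as a block (0.92) or within lot 2 (0.74). SPT between stigma and seedling was called with the RNA quality covariate (1.09), whose values did not overlap between these tissues. With no fold threshold SPT was also called against seedling, at 0.77 in stigma and 0.52 in ovary. SPT between stigma and ovary had an adjusted p of 0.0406 with equal medians, at 0.40. Over all tested probe sets, 2450 were called for stigma minus ovary, 4053 for stigma minus seedling and 3537 for ovary minus seedling. With no fold threshold these became 5381, 7644 and 8050. With the larger pseudocount the first became 1408 and the third 2257. Equal medians moved the median of all tested probe sets to 0.09 for stigma minus ovary, against −0.07, and to 0.01 for ovary minus seedling, against 0.12.

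Within-array differences between genes lost their call when any 1 array of stigma and ovary, or of stigma and seedling, or 1 ovary array of ovary and seedling, was left out. Adjusted p was then at least 0.0514. For a contrast with stigma, the exact test on so few arrays cannot give a p under 0.05, however far apart the groups lie. For ovary minus seedling the loss came through the joint adjustment. These losses thus do not measure how firm the differences are. Without 1 seedling array, ovary minus seedling kept its calls at 0.0429. ALC minus SPT then ran from −1.56 to −1.34 for stigma minus ovary and from 1.75 to 2.07 for ovary minus seedling. CES minus SPT ran from 1.58 to 1.92 for stigma minus ovary, from 7.13 to 7.46 for stigma minus seedling and from 5.37 to 5.72 for ovary minus seedling. CES minus ALC ran from 2.96 to 3.39, 6.53 to 6.97 and 3.36 to 3.82 in the same order. Over all alternatives, other added constants among them, the seedling contrasts of CES ran wider than with 1 array left out. CES minus SPT was then 5.52 to 8.00 for stigma minus seedling and 3.75 to 6.25 for ovary minus seedling. For CES minus ALC these ranges were 5.186 to 7.445 and 2.23 to 4.24. Within scan period A, ALC minus SPT between stigma and ovary was −1.05.

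Some differences near 0 that were not called turned sign, and the cause was not tested. GID1C between stigma and ovary was 0.0114 with the RNA quality covariate. With that covariate SEU between stigma and seedling was 0.0203 and INO was −0.0026. SEU was also 0.0104 with equal medians, 0.0267 with lot as a block, 0.0795 within lot 1 and −0.0866 to 0.0172 without 1 array. BRL1 between ovary and seedling was 0.0583 with quantile scaling, 0.0372 with lot as a block, 0.1719 within lot 2, −0.1528 to 0.0507 without 1 array and 0.0304 without stigma 1, ovary 1 and seedling 4 together.

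Arrays of the same number are not stated to share plants. Their deviations correlated at −0.03 to 0.26 between stigma and ovary, 0.02 to 0.06 between stigma and seedling and −0.08 to 0.07 between ovary and seedling, so the numbers were not taken as pairs. An array correlated best with its own number in 3 of 6, 5 of 6 and 1 of 8 cases in that order. With the replicate number as a block, 2514, 4039 and 3552 probe sets were called. The block gave 0.26 for SPT, −1.23 for ALC and 1.94 for CES between stigma and ovary. It gave 0.79, 1.23 and 8.00 between stigma and seedling and 0.52, 2.45 and 6.06 between ovary and seedling, and changed no call.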
